A study of Lymantria dispar dispar and Lymantria dispar asiatica with 30 samples.

Results

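Cuticle protein transcripts were followed through female pupal development of the spongy moth, Lymantria dispar, in 2 gene models of the 19654 in the expression table. Lda.37310's annotation is pupal cuticle protein C1B-like and Lda.23652's is cuticle protein 19.8-like, in both cases by resemblance to proteins of other moths. Both were selected on values from these same libraries. The C1B-like gene was picked for its change across days, so its course is described without a test and its difference between strains is tested. The 19.8-like gene was named by the study among genes differing between strains, so its strain difference is described and its steps between days are tested. All 5 sampling days had been looked at before either gene was chosen, and the tests are not independent evidence of the patterns.

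RNA came from 30 whole female pupae, 3 of each strain on days 1, 3, 5, 8 and 11 after pupation, with 1 library for each individual pupa. The strains were ASM (Asian, strain label RM) and ESM (European, strain label CT), each represented by a single laboratory colony of mixed eggs. Larvae ate an artificial diet whose added iron phosphate was 0.21 g per litre for ASM and 0.13 g per litre for ESM, so strain, colony and diet cannot be told apart. Reads of both strains were aligned to an ASM genome.

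Insect cuticle is a composite of chitin fibres and structural proteins, secreted by the epidermis beneath it. During pupal life of a moth the epidermis lays down the cuticle of the future adult, including the wing, body wall and scales, under the old pupal shell. Cuticle proteins belong to several families, many of which bind chitin, and their genes are typically switched on and off in sequence as the moulting hormone ecdysone rises and falls. The names of such proteins come from the stage or species in which they were first found, so a protein named for the pupa need not be restricted to pupal cuticle. In whole pupae, fewer cells of a type and less RNA in each of them cannot be told apart.

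The deposited values are on a variance-stabilised scale (VST units), from which read counts were recovered. Levels are given here as normalised counts, the recovered reads of a pupa divided by its library size factor, and tested differences as VST units. A doubling is 0.98 VST units starting from a normalised count of 10, 1.65 from 100, 1.13 from 1000 and 0.61 from 10000, so folds are read from the counts. The libraries held 2638373 to 10813733 recovered reads, with a median of 5193628. A library without a read allows up to 3 reads, and such limits and counting intervals cover counting error only.

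The transcript of the C1B-like protein, a structural protein of the cuticle, went from at most 3 reads in any pupa of day 1 to at least 1739 reads in every pupa of day 8, in both strains, and every pupa of day 11 still had at least 982. On day 1 the ASM pupae had normalised counts of 4.48, 1.15 and 1.08, and the ESM pupae had 0, 1.47 and 1.09. On day 3 the ASM pupae had 2.0, 0 and 8.07, against 22.4, 19.9 and 1.59 in ESM pupae. The gene was close to the limit of detection on both days, with 1 pupa of each strain without a read over the 2 days and 12 reads in all from the ASM pupae of day 3. On day 5 the normalised counts were 11.2, 406.6 and 94.6 in ASM pupae and 22.6, 136 and 159 in ESM pupae. Within each strain, the lowest pupa of day 5 was above the highest pupa of day 3, and pupae of these days did not overlap for 33.4% of all genes tested in ASM and 25.2% in ESM. The pupae of day 5 were also far apart, with 36.2 times as much transcript in the highest ASM pupa as in the lowest and 7.03 times in ESM.

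The level was highest on day 8. The ASM pupae had normalised counts of 1533, 19940.5 and 11209, and the ESM pupae had 10982, 10034 and 13294. The 3 ESM pupae were within 1.32-fold of each other, whereas the lowest ASM pupa was below the other 2 by a factor of more than 7. The mean over 3 pupae was 10894 with an SD of 9208 in ASM, 63.8 times that of day 5. In ESM it was 11436.5 with an SD of 1677, 108 times that of day 5. Counts above 10000 reads, as in 4 of these 6 pupae, were recovered less exactly than lower ones. Across the 5 days, day 8 held 76.7% of the summed group means of this transcript and day 11 held 22.2%.

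On day 11 the courses of the strains were apart. The ASM pupae still had normalised counts of 5934, 2120 and 8161, and the ESM pupae had 911, 1543 and 749. The mean of day 8 was 2.02 times that of day 11 in ASM, with overlapping pupae, and 10.7 times that of day 11 in ESM, where every pupa of day 11 was below every pupa of day 8 (the pupae of these days did not overlap for 32% of all genes tested in ESM). The ratio of means on day 11 was 5.06 in favour of ASM, and the lowest ASM pupa was above the highest ESM pupa.

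**Figure D1:**
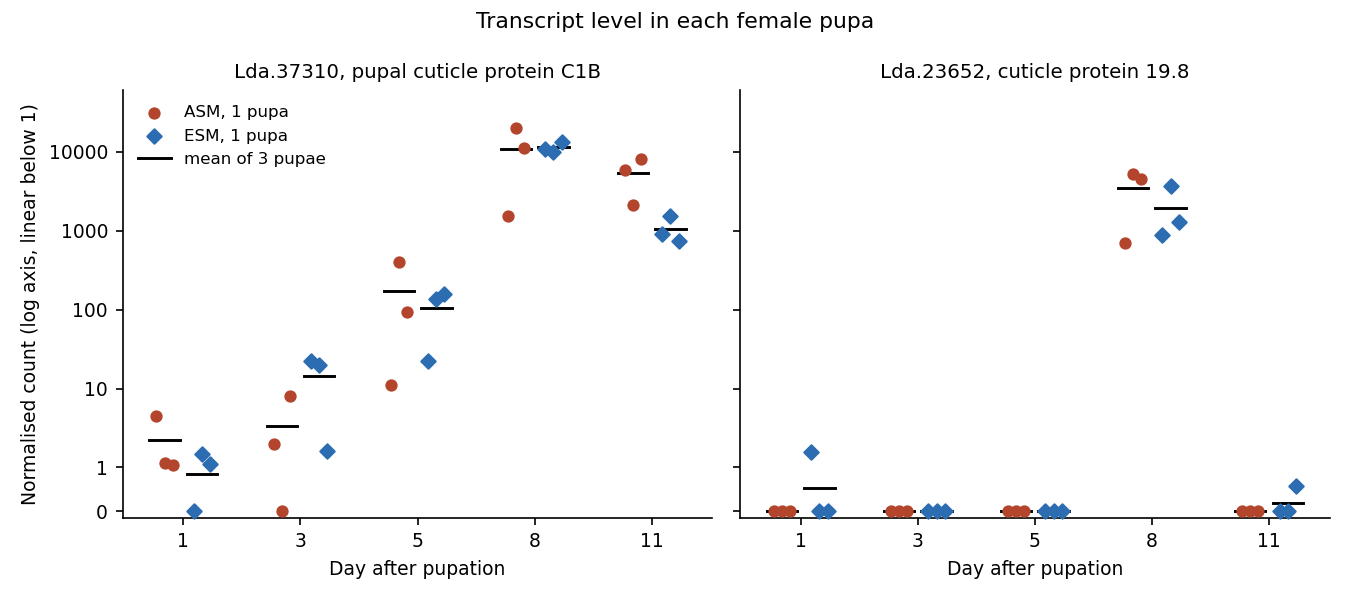
Normalised count of each pupa (points, log axis that is linear below 1) by day after pupation, for the C1B-like transcript on the left and the 19.8-like transcript on the right, with the mean of 3 pupae as a bar. The C1B-like transcript climbed from under 5 on day 1 to between 1533 and 19940.5 on day 8, and the 19.8-like transcript was read almost only on day 8.

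None of these differences of the C1B-like transcript between ASM and ESM passed the test. Averaged over the 5 days with equal weight, ASM minus ESM was 0.12 VST units (SE 0.51, limma, adjusted p = 0.90), and an exact permutation of strain labels within days gave p = 0.838 (two-sided). In the same limma fit, 23.4% of all 19652 genes tested were called for this average. Taken singly, days 1, 3, 5, 8 and 11 had differences of 0.36, -1.42, 0.13, -0.63 and 2.15, each with an SE of 1.14 VST units. The fit shares this SE between all days, and it is not the scatter of any single day. The SD of a group ran from 0.13 VST units (ESM, day 8) to 3.54 (ASM, day 5). On day 11 it was 0.83 in ASM and 0.65 in ESM. The adjusted p for these days was 0.941, 0.505, 0.991, 0.834 and 0.315 by limma, where the calls among all genes were 3.67%, 8.57%, 2.48%, 6.36% and 4.9%.

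Day 11 was the only day on which the C1B-like transcript of one strain lay wholly beyond that of the other, which was so for 24.3% of all genes tested on that day, and 12.2% had every ASM pupa above every ESM pupa. The exact permutation p for day 11 was 0.1, the smallest that 3 pupae against 3 can give, and 0.5 after adjustment over the 5 days. Under the alternative fits the adjusted p of day 11 ran from 0.0758 to 0.540 (limma, 12 fits). The interaction of strain and day was not called either (limma F = 1.36, adjusted p = 0.563, beside 3.65% of all genes called). With the shared SE of 1.14 VST units, differences as large as those of days 3 and 11 missed the test. A missed test does not show that the strains were alike.

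Some reference transcripts were also higher in ASM on day 11. Actin, the filament protein of muscle and cytoskeleton, was 2.25 times as high in ASM as in ESM, and Ef1g, a translation elongation factor subunit, was 1.65 times as high. Of 4 reference transcripts, these 2 were called higher in ASM on that day (beside 2.53% of all genes), and GAPDH and gamma-tubulin were not called. Actin was also called higher in ASM on day 3 and Ef1g on day 8, by 0.50 and 0.61 VST units (limma, adjusted p = 0.036 and 0.0064). On these days 8.57% and 6.36% of all genes were called in either direction. The part of such shifts in the day 11 values of the C1B-like transcript, or in other strain differences given here, was not tested.

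**Figure D2:**
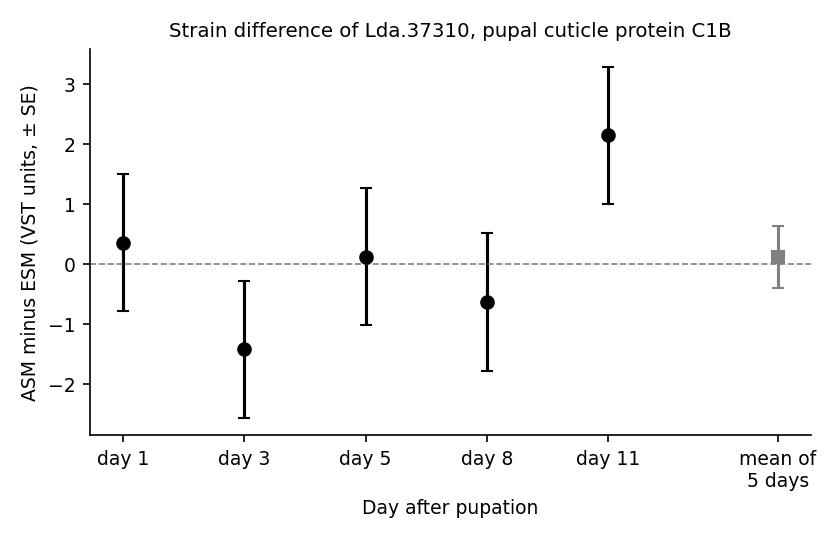
Fitted difference of ASM minus ESM for the C1B-like transcript (points, VST units) with its standard error (bars) on each day and for the mean of 5 days. The bars come from the spread shared by all groups and do not give the scatter of each day. The bars of days 1, 5 and 8 cross 0, the largest difference is 2.15 on day 11, and none of the 6 comparisons was called.

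The transcript of the 19.8-like protein, a second structural protein of the cuticle, was read on day 8 and nearly absent from the reads of the other days. On day 8 the ASM pupae had normalised counts of 706, 5280 and 4471, and the ESM pupae had 876, 3723 and 1302. All 6 pupae of day 8 therefore carried the transcript, each with at least 572 reads. In the 24 pupae of the other days only 2 reads were found, 1 in an ESM pupa of day 1 and 1 in an ESM pupa of day 11. Day 8 held 99.99% of the summed group means of this transcript.

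The steps around day 8 were the largest of this gene. From day 5 to day 8, averaged over the strains, the 19.8-like transcript rose by 11.96 VST units (SE 0.36, limma, adjusted p = 2.54e-19), with 6 of 6 pupae of day 8 above all pupae of day 5. Pupae of days 5 and 8 did not overlap for 39.3% of all genes tested in ASM and 37.9% in ESM. From day 8 to day 11 it fell by 11.91 VST units (SE 0.36, limma, adjusted p = 2.52e-18). Of all genes tested, 19.4% were called as rising over the first of these steps and 9.04% as falling over the second. In exact permutation tests of day labels within strains both steps gave p = 0.005, the smallest that 400 relabellings allow. The gene passed the read filter of the fit only through its libraries of day 8, which are also the libraries compared. Since days 5 and 11 held almost no reads of it, the permutation p was bound to reach this limit. The p-values of both steps thus restate where the reads lay and are no further evidence of the steps.

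Since no ASM pupa of day 5 had a read, the fold change has only a lower bound there. Against 3 reads in each library, the level of day 8 was at least 1159-fold higher than that of day 5 in ASM and at least 358-fold higher in ESM. It was at least 1294-fold higher than that of day 11 in ASM. In ESM a single read on day 11 gave a ratio of pooled reads of 8643, with a 95% exact counting interval of 1551 to 341419. Over the steps before day 5 both groups lay under the limit of detection and no fold can be given. The other 8 groups sit at or near the lowest value and pull down the spread shared by the fit, so the standard error of 0.36 is smaller than the scatter of the pupae of day 8 alone would give. With only the groups compared in the fit, the adjusted p was 2.84e-09 for the rise and 1.74e-08 for the fall (limma).

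Between the strains, the 19.8-like transcript overlapped on day 8. The 3 ASM pupae averaged 3485 with an SD of 2441, and the 3 ESM pupae 1967 with an SD of 1535, a ratio of 1.77. The fitted difference was 0.56 VST units (SE 0.51). This SE also comes from the spread shared by all groups and is smaller than these pupae alone would give. Their SDs on day 8 were 1.68 VST units in ASM and 1.12 in ESM. The lowest of the 6 pupae was an ASM pupa and so was the highest. Without that lowest ASM pupa the ratio was 2.48 and the fitted difference 1.53 VST units, and both remaining ASM pupae, at 4471 and 5280, were above the highest ESM pupa. This strain difference belongs to the contrast for which the gene was named and is given as a description.

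A transcript confined to day 8 in this way was uncommon in the table. Of the 19652 genes tested, 34 had at least 99% of their normalised counts on day 8 with a mean of at least 100 there, and for days 1, 3, 5 and 11 the corresponding numbers were 8, 0, 38 and 10. With the stricter condition of at most 1 read in any library of the other days, 9 genes were left. That limit is also the highest count of the 19.8-like gene outside day 8, so its place among them was given. The 19.8-like gene was 1 of the 8 among these 9 genes that had more than 3 reads in all 6 pupae of day 8.

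The 2 cuticle transcripts thus had their highest level on the same day and differed on the days next to it. The C1B-like transcript was present on day 5 and stayed on day 11, and the 19.8-like transcript was without a read on day 5 and had 1 read on day 11. Over the 30 libraries their VST values had a Pearson correlation of 0.635, in which the day of sampling is shared by all points. In the pupae of day 8, the normalised count of the 19.8-like transcript divided by that of the C1B-like transcript was 0.461, 0.265 and 0.399 in ASM and 0.0798, 0.371 and 0.0980 in ESM. These ratios put 1 ESM pupa among the ASM pupae and the other ESM pupae lower.

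The ASM pupa with the lowest C1B-like level on day 8, replicate 1, also had the lowest 19.8-like level of all 6. Its library was not the shallowest of the day, with 6154698 recovered reads against 3144807 to 6716032 in ESM pupae. It was the shallowest of the ASM libraries of day 8, where replicates 2 and 3 had 9695841 and 6564962. It was not low in every cuticle transcript. For the tweedle motif 2 model, a member of a family of cuticle proteins known in Drosophila for its effect on body shape, the 3 ASM pupae of day 8 had 4149, 2711 and 437 normalised counts, in replicate order, and the ESM pupae had 0, 52.0 and 1.42. For the first of the 2 osiris 18 models, from an insect-specific gene family whose members are expressed in cuticle-forming cells in Drosophila, the ASM pupae had 5104, 2652 and 453 and the ESM pupae had 0, 34.3 and 1.42.

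Replicate 1 of ASM was thus lowest in both members and highest in the tweedle 2 and osiris 18 models. In ESM, replicate 2 had the highest 19.8-like level of its strain and also the highest levels of these 2 models. On the first principal component of the 5000 most abundant genes, computed without the members and listed genes (45.5% of the variance, day 5 to day 11 running upward), these 2 pupae and ASM replicate 2 had the lowest values of day 8, at 57.1, 58.8 and 58.1. The other 3 pupae had 62.6 to 65.2. For scale, the mean on this component was -10.3 for day 5 and 67.0 for day 11. Pupae of day 8 therefore differed in their place along it, by far less than days 5 and 11 did. Whether that sets the member values was not tested.

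**Figure D3:**
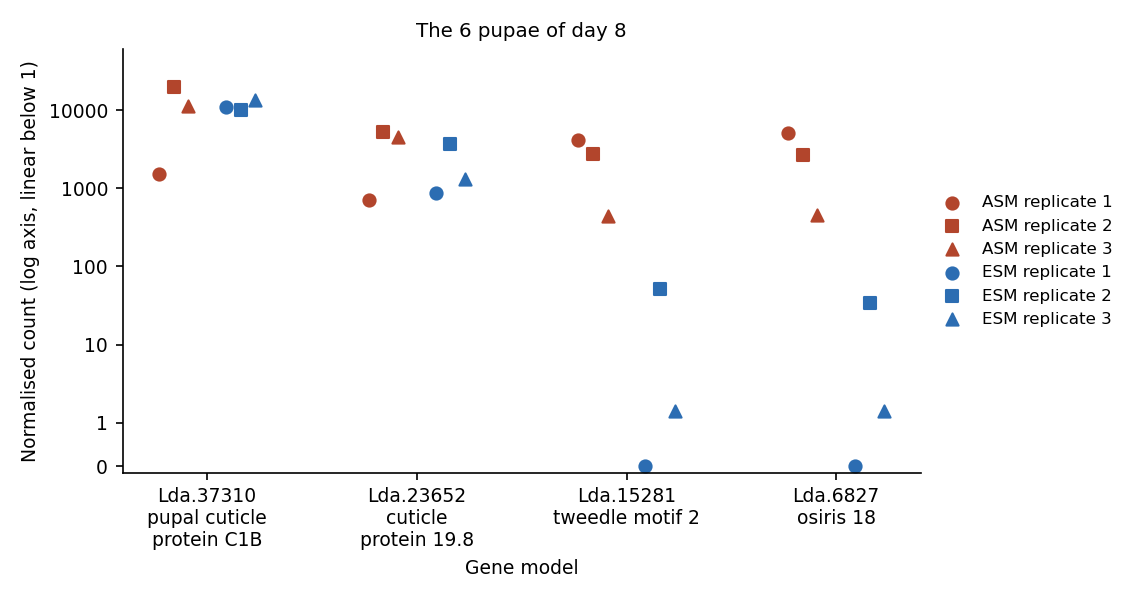
Normalised count (log axis, linear below 1) of each of the 6 pupae of day 8 for the C1B-like, 19.8-like, tweedle motif 2 and osiris 18 models, with the symbol giving the replicate and the colour the strain. Strains overlap in the first pair of genes, and in the second pair every ASM pupa (437 or more) is above every ESM pupa (52.0 or less), as for 15.8% of all genes tested. ASM replicate 1 is lowest in the first pair and highest in the second.

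Among the other annotated cuticle proteins, the tweedle models had their highest ESM means on day 5, and the tweedle motif 3 models also their highest ASM means. The list, drawn up with earlier results known and from tables whose genes were partly picked by the study in these libraries, had 4 models. The tweedle motif 2 model and the 2 tweedle motif 3 models all rose from day 3 to day 5 in the average of the strains (3 of 4, beside 12.3% of all genes called as rising), and also within each strain. The median change of the list was 10.69 VST units, against -0.04 over all genes tested. From day 5 to day 8 the strains went apart. In ESM the same 3 fell (3 of 4, beside 12.1% of all genes called as falling), and the median change of the list was -5.63 VST units. In ASM none of the 4 was called (beside 11.4% called as falling), with a median change of -0.66. The ASM mean of day 8 was 1.18 times that of day 5 for tweedle motif 2. It was 0.497 and 0.477 times that of day 5 for the tweedle motif 3 models. The average of the strains, in which 3 of 4 were called as falling (beside 18.1% of all genes) with a median of -3.27, joins these unlike courses. From day 8 to day 11, the 3 tweedle models fell in ASM (beside 5.36% of all genes) and the 2 tweedle motif 3 models fell in ESM (beside 5.39%).

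In ESM pupae the tweedle motif 2 level was 2940, 3256 and 3197 on day 5 and at most 52.0 on day 8, when the C1B-like level was above 10000 in every ESM pupa. In ASM pupae it was 1255, 2627 and 2311 on day 5 and 437 to 4149 on day 8. The study named all 3 tweedle models for strain differences in these same libraries, tweedle motif 2 for day 8, so their strain differences are a description. All 3 were called higher in ASM on day 8 (3 of 4, beside 3.54% of all genes called as higher in ASM), by 9.92 VST units for tweedle motif 2 and by 4.32 and 3.95 for the tweedle motif 3 models. Leaving out 1 of 3 libraries of day 8 (ASM replicate 1, ASM replicate 2 or ESM replicate 3) reduced this to 1 of 4. The 2 tweedle motif 3 models had nearly proportional counts in all pupae and may share reads, so they are uncertain as separate genes. The fourth model, annotated as a larval/pupal rigid cuticle protein, was read almost only in 1 ASM pupa of day 1, at 158 normalised counts.

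In ASM all 4 Osiris models rose from day 5 to day 8 (beside 12.9% of all genes called as rising) and fell from day 8 to day 11 (5.36%), with median changes of 10.20 and -11.51 VST units. In ESM none was called as rising to day 8 (beside 13% of all genes), and the second osiris 18 model fell by 3.98 VST units (limma, adjusted p = 0.0089), its mean going from 108 normalised counts on day 5 to 5.56 on day 8. None of the 4 was called in ESM from day 8 to day 11. In the average of the strains all 4 were called as rising (2 of 4 with voom) and as falling, and on day 8 all 4 were higher in ASM (3.54%). The study named all 4 Osiris models for higher levels in ASM than in ESM on day 8 of these same libraries. Their count on day 8 therefore follows from how they were chosen and is given as a description. The median difference of ASM minus ESM on day 8 was 10.41 VST units for the Osiris list, 4.13 for the cuticle protein list and 0.01 for all genes tested, and the values of the members were -0.63 (C1B-like) and 0.56 (19.8-like). The 2 members did not show on day 8 the separation of strains that the tweedle and Osiris models had in the same pupae. Those models were named for strain differences, and the C1B-like gene was picked for its change across days. This contrast thus depends in part on how the genes were chosen and is a description. For both members the values of the 3 ESM pupae of day 8 lay within the range of the ASM pupae.

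**Figure D4:**
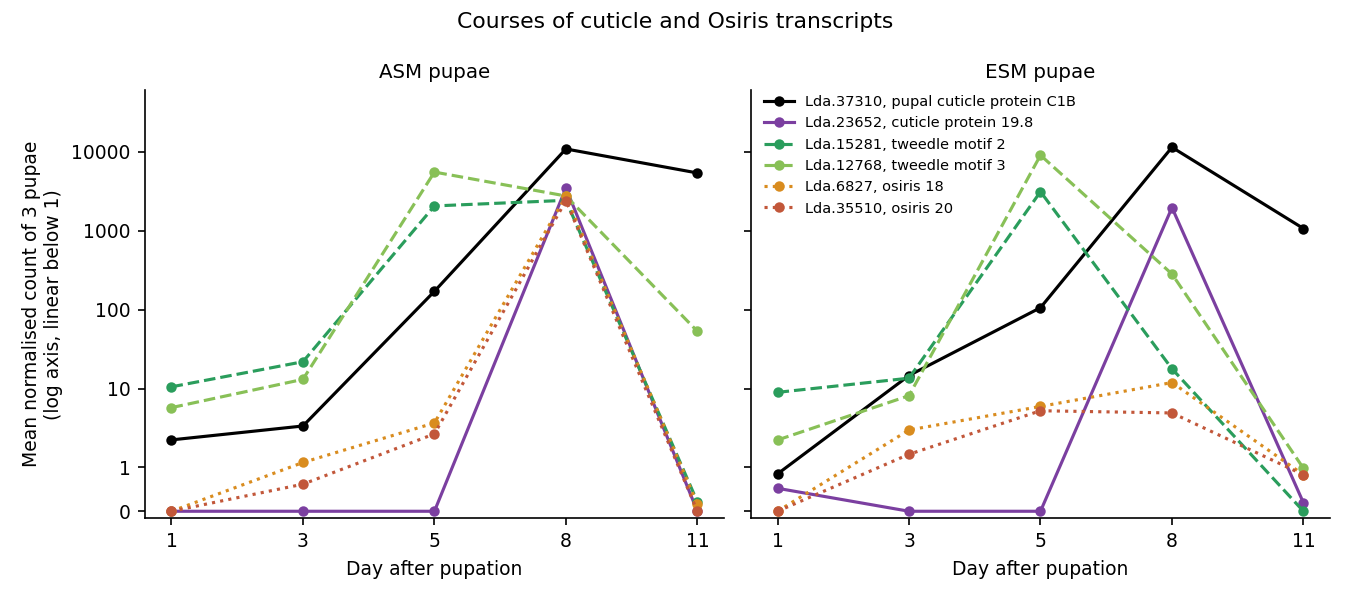
Mean normalised count of 3 pupae (log axis, linear below 1) by day for the members (solid lines), 2 tweedle models (dashed) and 2 Osiris models (dotted), with ASM on the left and ESM on the right. The tweedle means are highest on day 5 in ESM, and in ASM that of the tweedle motif 3 model is too. The members are highest on day 8 in both strains, and the Osiris means reach 2408 and 2736 on day 8 in ASM against 4.90 and 11.9 in ESM.

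Of 6 genes tied to moulting and cuticle supply, 2 changed from day 1 to day 3, where 6.21% of all genes were called as rising and 7.66% as falling. E75, a nuclear receptor induced by ecdysone, rose by 1.27 VST units and HR38, a nuclear receptor that acts with ecdysone signalling in Drosophila, fell by 6.18 (limma, adjusted p = 0.00013 and 1.6e-08). Both rose from day 3 to day 5 (beside 12.3% of all genes called as rising), E75 to normalised counts of 2525 to 7702 in the 6 pupae of day 5. Within strains the rise of E75 was called in ASM and not in ESM (limma, adjusted p = 0.026 and 0.33). E75, HR38 and N-acetylglucosamine-6-phosphate deacetylase, an enzyme of amino sugar breakdown, fell from day 5 to day 8, as the members rose. These were 3 of the 6 genes, beside 18.1% of all genes called as falling over that step. The deacetylase fell again from day 8 to day 11 (beside 9.04% of all genes called as falling). The UDP-N-acetylglucosamine transporter, a carrier of the sugar nucleotide from which chitin is made, had 71.2 to 152 normalised counts on day 5 and 90.3 to 129 on day 8, and no step of this gene passed the test.

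Strain differences within the moult list passed the test on single days for 2 genes. The UDP-N-acetylglucosamine transporter was lower in ASM on day 3 by 1.26 VST units (limma, adjusted p = 0.025, beside 4.61% of all genes), and a model annotated as an acidic juvenile hormone-suppressible protein was higher in ASM on day 11 by 4.03 (limma, adjusted p = 0.0065, beside 2.53% of all genes). The phenoloxidase-activating enzyme, of the cascade that darkens and hardens cuticle and defends against wounds, was higher in ASM when averaged over the days, by 2.09 VST units (limma, adjusted p = 0.00077, beside 12.4% of all genes). The phenoloxidase-activating enzyme had 1.29 to 81.4 normalised counts in ASM pupae and at most 4.72 in ESM pupae. On the same average E75 and the deacetylase were higher in ASM by 0.42 and 0.36 (limma, adjusted p = 0.024 and 0.025) and the UDP-N-acetylglucosamine transporter was lower by 0.43 (limma, adjusted p = 0.048), so 3 of the 6 genes were higher and 1 was lower.

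The genes whose VST values followed each member most closely over the 30 libraries were named as a description, since all of them share the libraries and their days. For the C1B-like transcript the 5 highest Pearson correlations were those of Lda.28518 (0.973), Lda.29584 (0.968), Lda.5084 (0.966), Lda.21087 (0.965) and Lda.3150 (0.958), none with a description in the sources used here. In all, 16 genes were above 0.95 and 312 above 0.9. Lda.28518 had no read in any ASM pupa of days 1 and 3, a mean normalised count of 28.0 on day 5, 9340 on day 8 and 5100 on day 11 in ASM, and of 69.6, 10408 and 5701 on these days in ESM. Its ESM pupae of day 11, at 4431 to 7885, were not below the ASM pupae, at 3286 to 7796, unlike those of the C1B-like transcript.

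Among described genes the highest were a U3 small nucleolar RNA-associated protein 14 homolog (Lda.761, 0.958), which in other species takes part in ribosome assembly, an uncharacterised protein (Lda.24857, 0.945) and a facilitated glucose transporter of solute carrier family 2 (Lda.31602, 0.931). With Spearman correlations or with the 10 group means, 2 of the 5 closest genes were the same in each case.

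For the 19.8-like transcript the closest genes were Lda.23648 (0.995), Lda.16400 (0.994), Lda.29475 (0.992), Lda.40748 (0.992) and Lda.17469 (0.992), again without a description. In all, 24 genes were above 0.95 and 46 above 0.9. On day 8 the normalised counts of Lda.23648 were 753, 5192 and 4345 in ASM and 444, 3922 and 1222 in ESM, which is 1.07, 0.983 and 0.972 times the 19.8-like level in ASM and 0.507, 1.05 and 0.939 times in ESM. Outside day 8 its highest normalised count was 8.95. Whether these models share reads was not tested.

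Lda.23648 did not keep the order of all 6 pupae, since its lowest pupa was ESM replicate 1 and that of the 19.8-like transcript was ASM replicate 1. The order differed more in other close genes of the same day. Lda.17469 had 57062, 56419 and 30461 normalised counts in the ASM pupae of day 8 and 1887, 23869 and 1687 in the ESM pupae, so that the ASM pupa lowest in the 19.8-like transcript was highest in this one. Lda.16400 had 18161, 28572 and 9964 in ASM and 5566, 15798 and 2997 in ESM. In ESM, replicate 2 was the highest pupa for the 19.8-like transcript and for Lda.23648, Lda.16400 and Lda.17469 alike.

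Among described genes, the closest to the 19.8-like transcript were a peroxidase (Lda.10904, 0.884), a peroxisomal catalase (Lda.20867, 0.854) and a mitochondrial choline dehydrogenase (Lda.40578, 0.827). Peroxidases and catalases consume hydrogen peroxide. The peroxidase had 1557 to 2954 normalised counts in the 6 pupae of day 8 but also 661 in 1 ASM pupa of day 1. The catalase had 1548, 1218 and 304 in the ASM pupae of day 8 against 15.3, 178 and 7.79 in the ESM pupae, and at most 5.45 in any pupa of another day. With Spearman correlations 1 of the 5 closest genes was the same, and with the 10 group means 4 were.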

How the data were processed

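RNA of 30 female pupae was sequenced on an Ion Proton instrument from polyadenylated RNA with a directional kit. Read quality was inspected by the authors in FastQC 0.11.5 and adapters were cut with Trimmomatic 0.36. They aligned them to the ASM genome, removed iflavirus reads, built merged gene models in StringTie and counted reads per model with featureCounts 2.0.0. The values the authors deposited are variance-stabilised, log2-like values made by DESeq2 1.28.1 under R 4.0.2, with a count of 0 at -0.52 in every library. No column was left unmapped to a sample.

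Counts were recovered by inverting the curve that the 30 libraries share. Per library, 99.8 to 100.0% of values were within 0.05 of a whole number (80.1% between 10000 and 30000 reads). The shares per library include values without a read and the lowest counts. Those were set as whole numbers in order, so they pass by construction. Size factors ran from 0.442 to 2.05. The closest pair of libraries shared 5.98% of identical values.

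Differences were fitted with limma 3.58.1 in R 4.3.3 (trend on mean expression) on the deposited values, with 1 mean for each of 10 groups, for the 19652 genes with a read in 3 or more libraries. P-values were adjusted by Benjamini-Hochberg over all genes within a comparison, and genes were called at 0.05. The steps were tested on simulated data. The other steps ran in Python 3.11.15 (numpy 2.4.6, pandas 2.3.3, scipy 1.17.1, matplotlib 3.10.9).

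Both members, the lists and the rule for named genes (members, listed genes, and for each member the 5 most correlated genes and the 3 most correlated with a description) were chosen with earlier results of these data known. Pupae are separate animals of 1 colony per strain. Alternatives were voom on the recovered counts, log2 of the normalised count + 1, libraries shifted to the same median, other filters, only the groups compared, a replicate block and leaving out libraries. The exact permutation tests and the day 8 means without 1 library were added after seeing the data. Gene coordinates and sequences were not used here. The C1B-like gene is model Lda.37310 and the 19.8-like gene Lda.23652. The cuticle protein list held Lda.38912 (rigid cuticle protein), Lda.15281 (tweedle motif 2), Lda.12768 and Lda.20030 (tweedle motif 3). The Osiris list held Lda.6827 and Lda.35031 (first and second osiris 18), Lda.35510 (osiris 20) and Lda.35030. The moult list held Lda.21602 (E75), Lda.17955 (HR38), Lda.36347, Lda.21796, Lda.14707 and Lda.20221, and the reference list Lda.11070 (actin), Lda.9151 (GAPDH), Lda.33417 (Ef1g) and Lda.39600 (gamma-tubulin).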

Additional observations from a re-analysis of the deposited data

Results flagged for a closer look

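Among the listed genes, the strain difference itself differed between days (interaction of strain and day, limma, adjusted p) for the tweedle motif 2 model (8.7e-06), the 2 osiris 18 models (1.24e-07 for the first and 1.45e-05 for the second), the osiris 20 model (3.4e-08), the further Osiris model (0.000116) and the acidic juvenile hormone-suppressible protein (0.0488), beside 3.65% of all genes. Neither member was among them, with adjusted p of 0.563 for the C1B-like and 0.928 for the 19.8-like transcript. The 19.8-like transcript had almost no reads outside day 8, so its interaction rests on the strain difference of that day. The gene was named for its strain difference, so this value is a description and not a test. The study named the 5 cuticle and Osiris models for higher levels in ASM on day 8 of these same libraries. Their interaction was thus built into the choice and is given as a description. In these 5 models the difference was called on day 8. The ratio of ASM to ESM means on that day was 137 for tweedle motif 2, 230 and 464 for the first and second osiris 18 models and 491 for osiris 20. For the further Osiris model the ESM pupae had 3 reads in all, and the ratio of pooled reads was 438 (95% exact counting interval 149 to 2124). On day 5 the means went the other way for the second osiris 18 model, 10.9 times as high in ESM, and the further Osiris model, 15.7 times as high from 4 reads in all in ASM, and neither was called (limma, adjusted p = 0.163 and 0.296). The juvenile hormone-suppressible protein had 163, 52.4 and 15.6 normalised counts in the ASM pupae of day 11 and 2.78, 3.35 and 0.58 in the ESM pupae.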

How the results depend on the processing

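Of 394 results under alternatives, 376 kept their direction and side of the threshold or moved little, 9 changed sign and 9 moved. No call for either member was lost or gained under the alternatives run. The difference of ASM minus ESM of the C1B-like transcript averaged over days was -0.10 with voom and ran from -0.23 to 0.47 when 1 library was left out. On day 5 it was -0.22 with voom, -0.042 on the log2 scale and -1.63 to 1.91 when 1 library was left out, and on day 8 -1.19 to 0.24, the positive value without ASM replicate 1. The rise of this transcript from day 5 to day 8 in ESM was 6.98 with voom, a log2 unit and not a VST unit. Of the listed genes, Osiris models called as rising from day 3 to day 5 were 1, and 0 with voom, 2 on the log2 scale and 1 to 2 when 1 library was left out. Osiris models rising from day 5 to day 8 were 2 with voom. Tweedle models called higher in ASM on day 8 were 1 to 3 when 1 library was left out. Moult genes rising from day 3 to day 5 were 1 when genes had to be above the lowest value in all 30 libraries, a filter that leaves neither member in the fit. A fit with only the groups compared is the same as the main one for the average over days and the interaction. The main fit did not pair the pupae by replicate number. In 15 pairs with the same number the deviations correlated at -0.249 to 0.417, and 6 were above 0.1. All same-number pairs of day 1 were among these, at 0.169 to 0.417. Pairs with other numbers ran from -0.525 to 0.258 over all days. Whether replicate numbers paired pupae on some days was not tested. With a replicate block the adjusted p of the C1B-like strain difference was 0.289 on day 11 and 0.895 averaged over days, and of the interaction 0.528, and no call of a member changed. At 3 pupae per group, the C1B-like transcript on days 1 and 3 and the 19.8-like transcript outside day 8 lie near the limit of detection.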
